A study of Arabidopsis thaliana with 18 samples.

Results

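The 7 genes described here belong to the phosphate starvation response of Arabidopsis thaliana: PEPC1 (AT1G17710), PS2 (AT1G73010), SPX1 (AT5G20150), SPX3 (AT2G45130), PHT1;4 (AT2G38940), PHO1;H1 (AT1G68740) and MGD3 (AT2G11810). They were taken by locus from a table of 33082 genes, in all 18 libraries. They had been selected on their transcript levels in these libraries, as phosphate starvation genes with results of the comparisons known. Which comparison guided that choice is not recorded, so every change of the 7 genes below is a description, given with its error and without a p-value. RNA was sequenced from 9-day-old Col-0 seedlings grown on vertical plates. The mutant, labelled bon123t and called bon123 below, is a triple mutant by the title of the series, of the copine genes BON1, BON2 and BON3. The comparison genotype is wild type (WT). The final t of the label is not explained in the labels. The 6 groups of 3 libraries were bon123 with 100 µM abscisic acid (ABA), WT with 100 µM ABA, bon123 with 300 mM mannitol, WT with 300 mM mannitol, bon123 with mock treatment and WT with mock treatment. All treatments were given on 1/2 MS medium. Treatment lasted 12 h by the sample labels but 24 h by the design text. No group was grown without phosphate.

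Plants that run short of phosphate switch on a common set of genes through PHR1 and its relatives, MYB-type factors that bind a short DNA element called P1BS in the promoters of their targets. SPX proteins hold PHR1 back while phosphate is plentiful, and inositol pyrophosphates are the signal they read. The targets take up and move phosphate (PHT1 and PHO1 families), free it from small molecules and nucleic acids (phosphatases and nucleases), and replace phospholipids of membranes by galactolipids and sulfolipids (MGD and SQD enzymes). ABA is the hormone of drought and osmotic stress, mannitol withdraws water from roots, and copines are phospholipid-binding proteins that respond to calcium.

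The promoters are shown because the P1BS element is what the phosphate response reads. Sequences and positions come from the RefSeq annotation of the TAIR10.1 assembly, in which all 7 loci were found. Positions are counted from the annotated transcript start, whose base is 1. The letters searched for P1BS were GNATATNC, which read the same on both strands. In the window from 250 bases before to 50 bases after the start, 4 of the 7 genes held a match (57.1%), as did 31 of 93 other phosphate response genes (33.3%) and 1716 of 27443 protein-coding genes (6.25%). In the 1000 bases upstream, 4 of the 7 genes held one, against 48.4% of the other phosphate response genes and 20.3% of the protein-coding genes. PHO1;H1 and MGD3 held none in either window.

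PS2 and SPX3 are printed with the 250 bases before their starts, since both hold matches close to the gene. PS2 has 1 match there and SPX3 has 2, and capitals mark the letters that match P1BS.
PS2 upstream, chr1:27466349-27466598, minus strand: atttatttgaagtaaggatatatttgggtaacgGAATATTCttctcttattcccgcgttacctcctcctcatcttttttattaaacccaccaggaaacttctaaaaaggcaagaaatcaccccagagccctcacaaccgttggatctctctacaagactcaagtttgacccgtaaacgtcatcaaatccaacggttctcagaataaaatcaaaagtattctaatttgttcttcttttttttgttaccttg
SPX3 upstream, chr2:18606160-18606409, plus strand: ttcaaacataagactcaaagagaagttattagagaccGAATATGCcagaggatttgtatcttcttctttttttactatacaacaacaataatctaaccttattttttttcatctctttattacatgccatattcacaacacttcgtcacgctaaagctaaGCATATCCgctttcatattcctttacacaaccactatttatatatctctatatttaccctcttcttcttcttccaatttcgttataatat

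The matches of PEPC1, SPX1 and PHT1;4 lie elsewhere, so short stretches around them are shown, with the match in capitals. Both of PEPC1 lie farther upstream, at -757 to -750 and -362 to -355. SPX1 has one at -735 to -728 and one just after its start, at 23 to 30. The single match of PHT1;4 spans its start, from -7 to 1.
PEPC1 far site, chr1:6092761-6092800, minus strand: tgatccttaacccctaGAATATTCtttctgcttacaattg
PEPC1 near site, chr1:6092366-6092405, minus strand: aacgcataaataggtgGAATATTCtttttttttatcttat
SPX1 upstream site, chr5:6801531-6801570, plus strand: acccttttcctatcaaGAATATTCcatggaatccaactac
SPX1 site after the start, chr5:6802293-6802322, plus strand: cagagaaaaaaGGATATTCtaattagaaac
PHT1;4 site at the start, chr2:16257134-16257173, plus strand: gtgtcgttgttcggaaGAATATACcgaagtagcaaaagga

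PEPC1 and PS2 encode related phosphatases and lie on the minus strand of chromosome 1, PEPC1 at chr1:6090405-6092027 and PS2 at chr1:27464528-27466348, each with 4 exons. Their coding sequences were 81.4% identical over the aligned bases, with a longest shared stretch of 27 bases. Their windows around the start also aligned, with 114 of 165 alignment columns identical (69.1%). The aligned stretches are printed because of the 7 genes these 2 had the strongest responses to ABA in bon123, and capitals mark the identical bases.
PEPC1 aligned stretch, -248 to -85, chr1:6092112-6092275, minus strand: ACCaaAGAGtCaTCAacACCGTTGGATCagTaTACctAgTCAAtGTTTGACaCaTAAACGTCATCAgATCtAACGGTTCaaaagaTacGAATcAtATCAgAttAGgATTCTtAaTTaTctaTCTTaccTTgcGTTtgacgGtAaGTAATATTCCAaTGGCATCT
PS2 aligned stretch, -132 to 23, chr1:27466326-27466480, minus strand: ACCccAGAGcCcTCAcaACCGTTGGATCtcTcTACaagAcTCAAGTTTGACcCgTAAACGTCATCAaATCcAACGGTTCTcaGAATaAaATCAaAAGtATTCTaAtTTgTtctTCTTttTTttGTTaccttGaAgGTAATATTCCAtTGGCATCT
The letters ACGTGNC, used by ABA-responsive bZIP factors and searched on both strands, were absent from both windows of all 7 genes. They occurred in 10.3% of the windows of all protein-coding genes and in 20.0% of the 1000-base upstream regions. A match or its absence describes these letters only, and says nothing about binding.

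**Figure D1:**
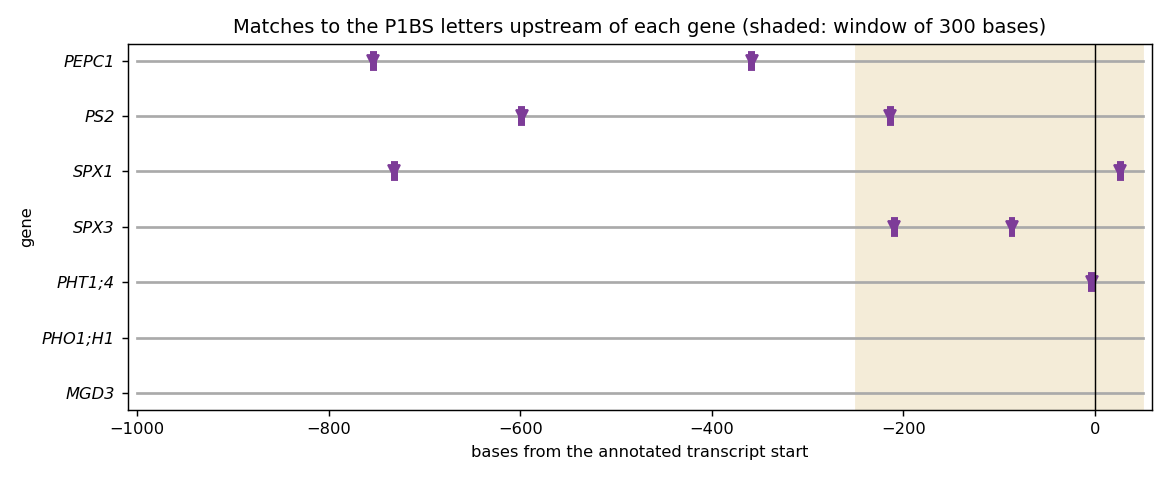
Matches to the P1BS letters from 1000 bases before to 50 bases after the annotated transcript start of the 7 genes (x axis, bases from the start; 1 row per gene). PEPC1, PS2, SPX1 and SPX3 hold 2 matches each, PHT1;4 holds 1 at its start, and PHO1;H1 and MGD3 hold none; the shaded window is the one from 250 bases before to 50 after the start.

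The values are TPM, transcript shares scaled to a common total (999989 to 999999 in each library), so read depth is unknown and only the 3 libraries of a group show the precision. Correlations across genes between libraries of a group were 0.971 to 0.993, and no 2 libraries held identical values. Nothing in the labels says that replicates were separate cultures, so errors and p-values cover only the spread among these samples, which may be technical. BON1 averaged 0.387 to 1.27 TPM in the bon123 groups, against 10.9 to 15.5 TPM in the WT groups, and BON2 was lower in bon123 in each treatment. BON3 was at 0.343 to 0.673 TPM in the bon123 groups, against 0.0167 to 0.13 TPM in the WT groups, so it did not follow the genotype label. Bon123 ABA replicate 3 stood apart, with a median-of-ratios size factor of 0.634 against 0.856 and 0.808 in the other two. WT mock replicate 2 was the highest of its group for all 7 genes. For part of the results, values without 1 of these 2 libraries are given below.

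Root markers gave mixed differences between the genotypes, while markers of leaf and shoot cells were lower in bon123 in each treatment. The summed level of 6 such genes (RBCS1A, LHCA1, LHCB3, PSBO1, KCS6 and PSAH2) was 169.6 to 223.7 TPM in bon123 ABA, against 20926 to 24723 TPM in WT ABA. It was 867.79 to 979.43 TPM in bon123 mannitol, against 14634 to 19081 TPM in WT mannitol, and 948.44 to 1309.5 TPM in bon123 mock, against 29329 to 31017 TPM in WT mock. None of the 6 was at 0 in any group, and the mean sums were 120-fold, 17.9-fold and 26.8-fold lower in bon123. The sums of 8 root genes were 55.38 to 58.66 TPM in bon123 ABA, against 34.93 to 58.33 TPM in WT ABA. They were 159.17 to 208.15 TPM in bon123 mannitol, against 59.12 to 143.95 TPM in WT mannitol, and 114.86 to 149.78 TPM in bon123 mock, against 88.61 to 138.62 TPM in WT mock. None of the 8 was at 0 in any library. With ABA against mock, all 6 shoot genes fell in bon123, while 1 rose and 1 fell in WT. Of the 8 root genes, 4 fell and 2 rose with ABA in bon123, and 5 fell in WT. Over all genes, 55.5% fell and 15.1% rose with ABA in bon123, and 30.6% fell and 18.9% rose in WT. With mannitol against mock, 4 shoot genes fell in bon123, and 4 fell and 1 rose in WT. Of the root genes, 3 rose and 1 fell with mannitol in bon123, and 1 fell in WT. Over all genes, 48.8% fell and 12.6% rose with mannitol in bon123, and 25.0% fell and 25.5% rose in WT. For bon123 against WT, all 6 shoot genes were lower in each treatment. Root genes higher and lower in bon123 were 2 and 1 in ABA, 3 and 1 in mannitol, and 1 and 1 in mock. The shares of all genes higher and lower were 28.9% and 47.5% in ABA, 25.4% and 49.3% in mannitol, and 40.1% and 33.7% in mock. Fewer cells of a type and less RNA per cell cannot be told apart in such samples, and the part of these markers in any treatment response or difference between bon123 and WT was not tested.

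**Figure D2:**
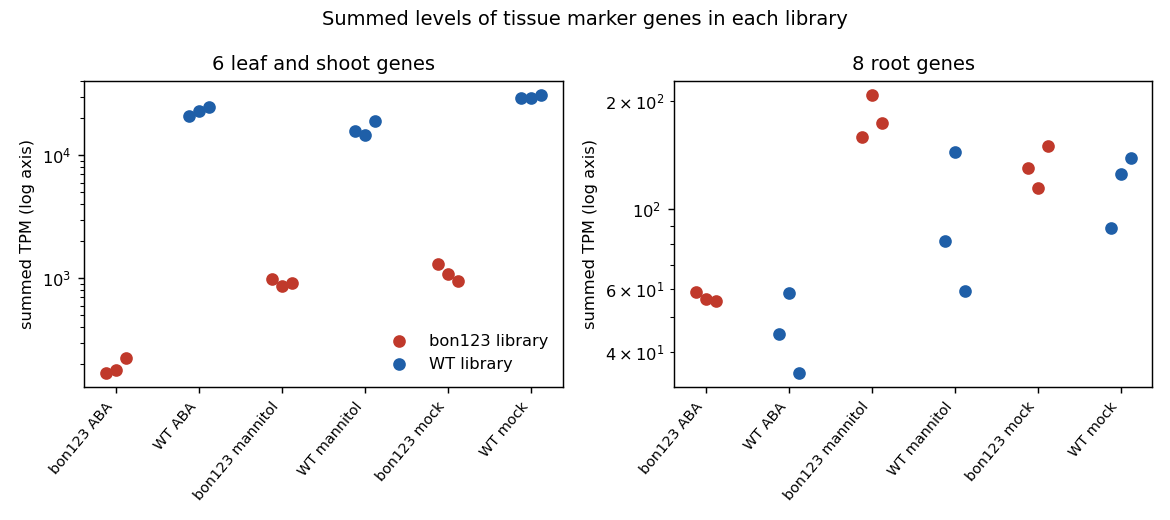
Summed TPM (log axis) of 6 leaf and shoot genes and of 8 root genes in each library of the 6 groups; 1 point is 1 library. Every bon123 library lies below every WT library for the shoot genes, while for the root genes the bon123 libraries lie above the WT libraries after mannitol and overlap them after mock.

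PEPC1 encodes a phosphatase that frees phosphate from phosphocholine and phosphoethanolamine. On the log2(TPM + 1) scale its group means varied more than those of the other 6 genes. After ABA it was at 70.08, 63.9 and 53.59 TPM in bon123, against 16.05, 17.93 and 23.23 TPM in WT. After mannitol it was at 0.13, 0.88 and 1.03 TPM in bon123, against 24.95, 15.4 and 18.3 TPM in WT. After mock treatment it was at 0.58, 0.25 and 0.36 TPM in bon123, against 5.5, 9.9 and 3.23 TPM in WT. The genotypes did not overlap in any treatment: bon123 was above WT after ABA and below it after mannitol and mock. On that log2 scale, used for all changes, ABA against mock gave 5.51 ± 0.29 in bon123 (SE, n = 3 per group, here and throughout) and 1.57 ± 0.29 in WT. Mannitol against mock gave 0.23 ± 0.29 in bon123 and 1.59 ± 0.29 in WT. The interaction (bon123 response minus WT response) was 3.94 ± 0.41 for ABA and -1.36 ± 0.41 for mannitol. With a pseudocount of 0.1 the interaction with mannitol was -1.35 and no longer passed the threshold. Without bon123 ABA replicate 3 the ABA responses differed by 4.04, and without WT mock replicate 2 by 3.59. Bon123 against WT gave 1.67 ± 0.29 in ABA, -3.63 ± 0.29 in mannitol and -2.27 ± 0.29 in mock. In the order of group means, WT mannitol and WT ABA overlapped, as did bon123 mannitol and bon123 mock.

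PS2, a phosphatase specific for pyrophosphate, had a similar pattern at a higher level. After ABA it was at 80.0, 113.7 and 103.26 TPM in bon123, against 32.72, 29.44 and 38.35 TPM in WT. After mannitol it was at 6.52, 4.51 and 4.87 TPM in bon123, against 49.09, 32.52 and 34.89 TPM in WT. After mock treatment it was at 9.48, 9.32 and 7.35 TPM in bon123, against 7.57, 13.76 and 7.15 TPM in WT. Unlike in PEPC1, the mock libraries of both genotypes overlapped, and the bon123 mannitol libraries lay below them all. ABA against mock gave 3.36 ± 0.22 in bon123 and 1.76 ± 0.22 in WT. Mannitol against mock gave -0.63 ± 0.22 in bon123 and 1.96 ± 0.22 in WT. The lower value in bon123 mannitol passed the threshold here but not with median-of-ratios scaling (-0.18), with the trend with gene length removed (-0.42), or without bon123 mannitol replicate 2 (-0.54) or 3 (-0.59) or bon123 mock replicate 1 (-0.57) or 2 (-0.58). The interaction was 1.59 ± 0.31 for ABA and -2.59 ± 0.31 for mannitol. Bon123 against WT gave 1.53 ± 0.22 in ABA, -2.65 ± 0.22 in mannitol and -0.06 ± 0.22 in mock, where it was 0.21 without WT mock replicate 2. Both interactions kept their direction and stayed past the threshold without WT mock replicate 2 (1.32 and -2.86).

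SPX1 and SPX3 encode small proteins with an SPX domain that bind PHR1, and their transcripts are known to accumulate when phosphate runs low. SPX1 (chr5:6802282-6803655, plus strand, 3 exons) was at 28.31, 32.87 and 28.64 TPM in bon123 ABA, against 38.4, 33.54 and 38.43 TPM in WT ABA. It was at 12.05, 8.79 and 10.34 TPM in bon123 mannitol, against 75.9, 60.91 and 63.63 TPM in WT mannitol. It was at 13.92, 14.3 and 14.68 TPM in bon123 mock, against 29.26, 50.26 and 39.41 TPM in WT mock. Bon123 lay below WT in each treatment, most widely after mannitol and by a narrow margin after ABA. Mannitol against mock gave -0.44 ± 0.16 in bon123 and 0.77 ± 0.16 in WT, and ABA against mock gave 1.01 ± 0.16 in bon123 and -0.07 ± 0.16 in WT. The negative value in bon123 turned to 0.040 with median-of-ratios scaling and fell short of the threshold with the length trend removed (-0.28). It also fell short without bon123 mannitol replicate 2 (-0.33) or 3 (-0.44) and without bon123 mock replicate 2 (-0.43) or 3 (-0.42). The interactions of SPX1 were 1.09 ± 0.22 with ABA and -1.20 ± 0.22 with mannitol. Bon123 against WT gave -2.58 ± 0.16 in mannitol and -1.38 ± 0.16 in mock. In ABA it gave -0.29 ± 0.16, which was 0.13 with median-of-ratios scaling. Without WT mock replicate 2 the ABA value in WT was 0.11.

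SPX3 (chr2:18606410-18607853, plus strand, 3 exons) was weak except in WT mannitol. It was at 0.48, 1.35 and 1.39 TPM in bon123 ABA, against 0.92, 2.24 and 4.13 TPM in WT ABA. It was at 0.67, 0 and 0.13 TPM in bon123 mannitol, against 8.55, 7.84 and 6.6 TPM in WT mannitol. It was at 0.16, 0.32 and 0.53 TPM in bon123 mock, against 1.22, 3.1 and 0.86 TPM in WT mock. The WT mannitol libraries lay above the other 15, and the other 5 groups each overlapped their neighbour in order of mean. Mannitol against mock gave -0.10 ± 0.34 in bon123 and 1.75 ± 0.34 in WT, with an interaction of -1.85 ± 0.48. At levels near 1 TPM the pseudocount sets much of a fold change: ABA against mock in bon123 was 0.61 ± 0.34 with a pseudocount of 1 and 1.40 with 0.1. That difference passed the threshold once the length trend was removed (1.15) or the median-of-ratios scaling applied (0.90). Bon123 against WT in mock was -0.95 ± 0.34, and it missed the threshold without WT mock replicate 2 (-0.61) and without bon123 mock replicate 1 (-0.85). In mannitol it was -2.80 ± 0.34, and in ABA -0.65 ± 0.34, which passed the threshold without WT ABA replicate 1 (-1.01). The coding sequences of SPX1 and SPX3 were 67.0% identical with a longest shared stretch of 14 bases.

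PHT1;4 and PHO1;H1 move phosphate. PHT1;4 (chr2:16257157-16260253, plus strand, 2 exons) is a high-affinity importer of the plasma membrane, expressed mainly in roots. It was at 17.18, 17.28 and 11.39 TPM in bon123 ABA, against 15.12, 10.52 and 8.42 TPM in WT ABA. It was at 46.72, 54.02 and 44.0 TPM in bon123 mannitol, against 31.61, 29.87 and 34.91 TPM in WT mannitol. It was at 32.57, 28.74 and 26.8 TPM in bon123 mock, against 16.36, 30.88 and 28.03 TPM in WT mock. Its groups were ordered by treatment, with both ABA groups lowest and both mannitol groups highest in mean, and within each treatment bon123 had the higher mean. ABA against mock gave -0.92 ± 0.22 in bon123 and -1.07 ± 0.22 in WT, and mannitol against mock gave 0.70 ± 0.22 in bon123 and 0.39 ± 0.22 in WT. The root marker sum was also lower in ABA than in mock, at 55.38 to 58.66 TPM against 114.86 to 149.78 TPM in bon123 and at 34.93 to 58.33 TPM against 88.61 to 138.62 TPM in WT. In bon123 mannitol the root marker sum was higher than in bon123 mock. In WT the mannitol sum, 59.12 to 143.95 TPM, overlapped that of mock. Among the 8 root genes, 4 fell and 2 rose with ABA in bon123. The part of the root markers in the PHT1;4 values was not tested. In bon123 the ABA value was -0.26 after median-of-ratios scaling and -0.33 after removal of the length trend, neither past the threshold. Bon123 against WT in ABA, 0.41 ± 0.22, passed it with those scalings (0.81 and 0.83) and without bon123 ABA replicate 3 (0.60) or WT ABA replicate 1 (0.62). Bon123 against WT in mannitol, 0.57 ± 0.22, missed it without bon123 mannitol replicate 1 (0.59) or 2 (0.49) or WT mannitol replicate 1 (0.56) or 2 (0.52). The mannitol value in bon123 missed it without bon123 mannitol replicate 2 (0.61). The interactions, 0.15 ± 0.32 with ABA and 0.31 ± 0.32 with mannitol, passed it with median-of-ratios scaling (0.73 and 0.89).

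PHO1;H1 (chr1:25812449-25816983, minus strand, 11 exons) belongs to the family of PHO1, which exports phosphate to the xylem for the shoot. It was at 1.52, 0.74 and 0.67 TPM in bon123 ABA, against 4.22, 4.45 and 3.85 TPM in WT ABA. It was at 1.65, 1.71 and 1.52 TPM in bon123 mannitol, against 8.32, 6.47 and 10.45 TPM in WT mannitol. It was at 0.83, 0.73 and 1.41 TPM in bon123 mock, against 5.95, 7.38 and 4.56 TPM in WT mock. The 9 bon123 libraries ranged from 0.67 to 1.71 TPM, below the range of the 9 WT libraries, 3.85 to 10.45 TPM. Bon123 against WT gave -1.41 ± 0.19 in ABA, -1.82 ± 0.19 in mannitol and -1.80 ± 0.19 in mock. The interactions were 0.39 ± 0.28 with ABA and -0.02 ± 0.28 with mannitol. Mannitol against mock gave 0.42 ± 0.19 in bon123 and 0.43 ± 0.19 in WT, values close to the threshold that passed it under several other settings, such as 0.69 in bon123 with median-of-ratios scaling and 0.58 in WT without WT mock replicate 2. This is the longest of the 7 genes, and removing the length trend turned its ABA response in bon123 from -0.02 to 0.62.

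MGD3 (chr2:4743162-4746813, plus strand, 7 exons) encodes a galactolipid synthase that supplies the membrane lipids replacing phospholipids. It was at 0, 0.1 and 0.1 TPM in bon123 ABA, against 1.86, 1.49 and 3.66 TPM in WT ABA. It was at 0.11, 0.1 and 0 TPM in bon123 mannitol, against 12.19, 8.0 and 8.3 TPM in WT mannitol. It was at 0.07, 0.07 and 0.15 TPM in bon123 mock, against 1.45, 4.05 and 2.49 TPM in WT mock. All 9 bon123 libraries were at or below 0.15 TPM and all 9 WT libraries at or above 1.45 TPM. Mannitol against mock gave -0.04 ± 0.24 in bon123 and 1.56 ± 0.24 in WT, with an interaction of -1.60 ± 0.35. ABA against mock gave -0.04 ± 0.24 in bon123 and -0.13 ± 0.24 in WT, where it was 0.14 without WT mock replicate 2. With the length trend removed the value in bon123 turned to 0.54. Bon123 against WT gave -1.59 ± 0.24 in ABA, -3.27 ± 0.24 in mannitol and -1.68 ± 0.24 in mock. Its nearest paralog MGD2, 73.8% identical in coding sequence with a longest shared stretch of 26 bases, was also low in bon123. MGD2 averaged 0.277 TPM in bon123 ABA, against 4.38 TPM in WT ABA, 0.223 TPM in bon123 mannitol, against 7.22 TPM in WT mannitol, and 0.24 TPM in bon123 mock, against 4.39 TPM in WT mock. Bon123 against WT in mannitol gave -2.74 ± 0.13 for MGD2, which was at most 0.39 TPM in the 9 bon123 libraries.

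**Figure D3:**
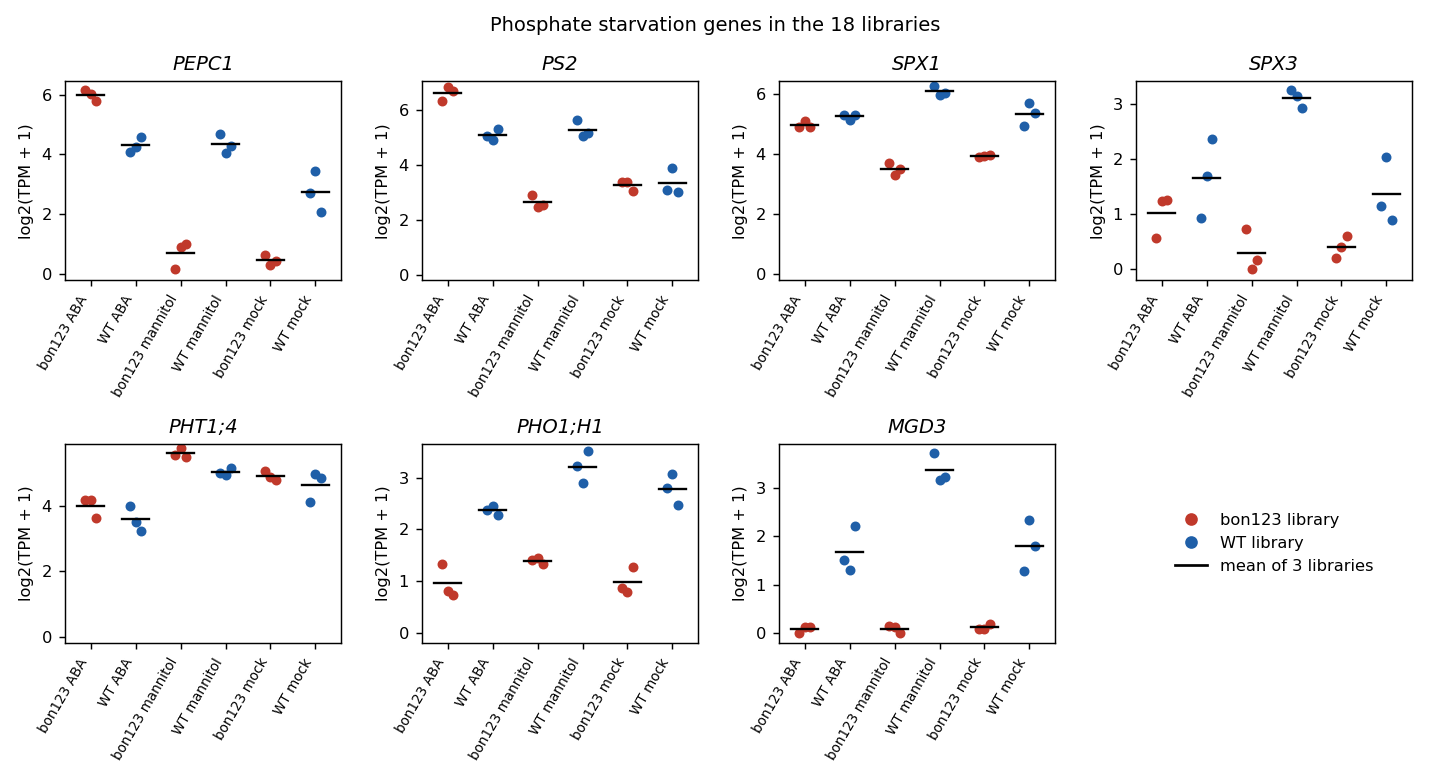
Levels of the 7 genes as log2(TPM + 1) (y axis) in the 18 libraries by group; points are libraries and bars are means of 3. PEPC1 and PS2 are highest in bon123 ABA, SPX1, SPX3, PHO1;H1 and MGD3 are highest in WT mannitol, and PHT1;4 is highest in bon123 mannitol.

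Counted over the 7 genes, the share past the adjusted p threshold of 0.05 is set beside that of all 21727 tested genes, and nothing is read from it because the choice of genes may have used these contrasts. All 7 genes passed the filter of 1 TPM in 3 libraries, MGD3 only through WT (at most 0.15 TPM in bon123) and SPX3 mainly through WT (at most 1.39 TPM in bon123). PHO1;H1 had libraries above 1 TPM in both genotypes. The differences of MGD3 between bon123 and WT thus come from a gene kept by the genotype where it is high. The same holds for those of MGD2, at most 0.39 TPM in bon123. For ABA against mock, 4 of 7 passed in bon123 (70.6% of all genes) and 3 of 7 in WT (49.5%). For mannitol against mock, 3 of 7 passed in bon123 (61.5%) and 5 of 7 in WT (50.5%). Those 5, PEPC1, PS2, SPX1, SPX3 and MGD3, were all higher with mannitol in WT (25.5% of all genes were higher and 25.0% lower). For bon123 against WT, 4 of 7 passed in ABA (76.4%), 7 of 7 in mannitol (74.6%) and 5 of 7 in mock (73.8%). In mannitol 6 were lower in bon123 and PHT1;4 was higher (49.3% of all genes were lower and 25.4% higher). The interaction passed for 3 of 7 genes with ABA (52.6%), all positive (9.51% of all genes were positive and 43.0% negative). It passed for 5 of 7 with mannitol (62.3%), all negative (45.3% of all genes were negative and 17.0% positive). With median-of-ratios scaling 4 of the 7 were positive and 0 negative with ABA, and 1 was positive and 5 negative with mannitol. The comparisons of ABA and of mannitol share the 3 mock libraries of each genotype.

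**Figure D4:**
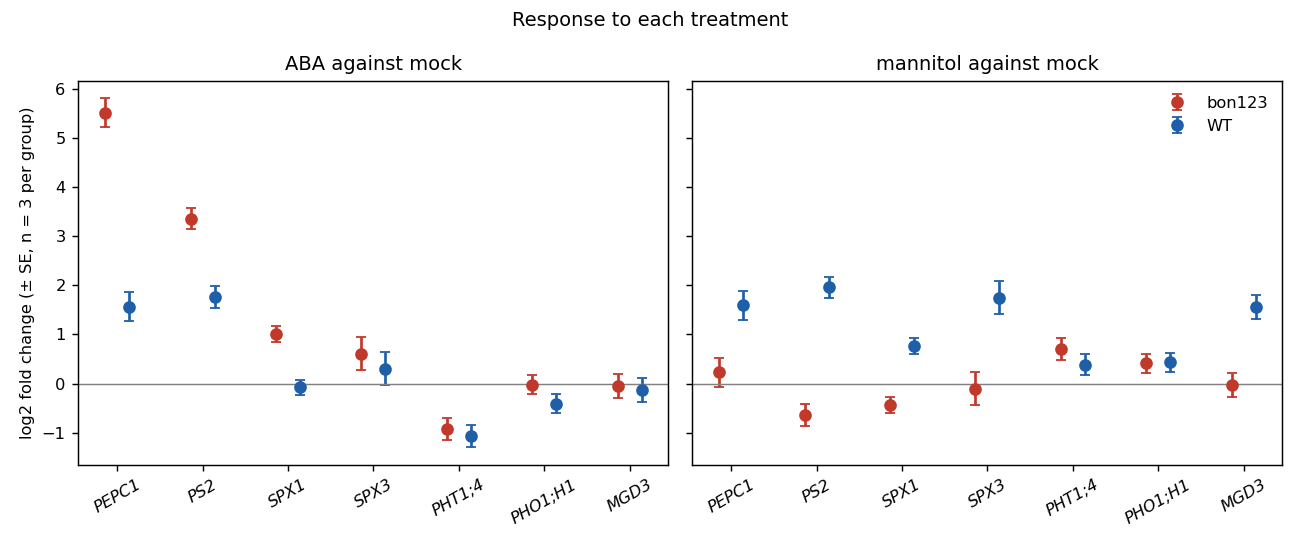
Log2 fold change (y axis, with SE, n = 3 libraries per group) of each of the 7 genes to ABA and to mannitol, in bon123 and in WT. For ABA the bon123 points of PEPC1, PS2 and SPX1 lie above the WT points; for mannitol the bon123 points of PEPC1, PS2, SPX1, SPX3 and MGD3 lie below them.

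The regulators upstream of these genes were measured in the same libraries. PHR1, the main activator, averaged 52.3 ± 9.31 TPM in bon123 ABA and 41.7 ± 1.72 TPM in WT ABA (SD, n = 3 each). It averaged 21.2 ± 0.637 TPM in bon123 mannitol, against 47.2 ± 0.772 TPM in WT mannitol, and 53.0 ± 2.24 TPM in bon123 mock, against 49.8 ± 2.96 TPM in WT mock. PHR1 thus fell with mannitol in bon123 (-1.28 ± 0.10, limma adjusted p = 7.8e-08), while in WT the value was -0.07 ± 0.10 (limma adjusted p = 0.586), which passed the threshold only with median-of-ratios scaling (-0.16). Its relative PHL1 rose in WT with mannitol (1.31 ± 0.11, adjusted p = 1.34e-07) and with ABA (1.32 ± 0.11, adjusted p = 1.52e-07), and in bon123 with ABA (1.03 ± 0.11, adjusted p = 6.55e-07). PHO2, the ubiquitin-conjugating enzyme that removes phosphate transporters, was at 144.3 ± 5.96 TPM in bon123 mock, against 51.5 ± 2.65 TPM in WT mock (1.47 ± 0.12, adjusted p = 1.04e-08). It fell with ABA in bon123 (-1.56 ± 0.12, adjusted p = 6.78e-09). SPX2, 74.5% identical to SPX1, rose with ABA in bon123 (0.69 ± 0.13, adjusted p = 0.000152) and with mannitol in WT (0.56 ± 0.13, adjusted p = 0.00181). With mannitol in bon123 SPX2 (-0.66 ± 0.13, adjusted p = 0.000333), PHL1 (-0.62 ± 0.11, adjusted p = 0.000219) and SPX4 (-0.75 ± 0.16, adjusted p = 0.000883) fell, but none of the 3 passed with median-of-ratios scaling (-0.17, -0.13 and -0.30). PHO2 fell there too (-0.87 ± 0.12, adjusted p = 1.2e-05), a value that was 0.26 with the length trend removed. SPX4, which holds PHR proteins in the cytosol, did not pass the threshold with either treatment in WT (0.01 ± 0.16 with ABA and -0.26 ± 0.16 with mannitol, the second passing without WT mock replicate 1, at -0.49).

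IPS1, a non-coding RNA that sequesters the microRNA against PHO2 and a classical marker of phosphate starvation, was nearly absent from bon123. It averaged 0.4 TPM in bon123 ABA, against 0.693 TPM in WT ABA, 0.397 TPM in bon123 mannitol, against 10.9 TPM in WT mannitol, and 0.383 TPM in bon123 mock, against 8.34 TPM in WT mock. It fell with ABA in WT (-2.45 ± 0.28, adjusted p = 3.59e-06) and did not pass with mannitol there (0.34 ± 0.28, adjusted p = 0.341). Its relative AT4 was present in both genotypes, at 24.7 ± 3.73 TPM in bon123 ABA and 36.8 ± 2.84 TPM in bon123 mock. AT4 fell with ABA in WT (-0.999 ± 0.19, adjusted p = 0.000498) and in bon123 (-0.57 ± 0.19, adjusted p = 0.0161), the bon123 value turning to 0.10 with median-of-ratios scaling and missing the threshold without bon123 ABA replicate 1 (-0.44) or bon123 mock replicate 2 (-0.51). It rose with mannitol in bon123 (0.63 ± 0.19, adjusted p = 0.0105). VIP1, an inositol pyrophosphate kinase, rose with mannitol in WT (0.68 ± 0.20, adjusted p = 0.0107) and fell with ABA (-0.72 ± 0.20, adjusted p = 0.00786). Its relative VIP2 did not pass with either treatment in WT, at -0.07 ± 0.20 with mannitol and -0.49 ± 0.20 with ABA. With mannitol in bon123 both VIP1 (-0.95 ± 0.20, adjusted p = 0.000788) and VIP2 (-1.25 ± 0.20, adjusted p = 6.81e-05) fell, with values of 0.10 and -0.19 once the length trend was removed. The ABA value of VIP2 in WT passed with median-of-ratios scaling (-0.43), with no length trend (-0.35), and without WT mock replicate 1 (-0.60) or bon123 ABA replicate 1 or 3 (-0.49).

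Relatives of the transporters that were also read are PHT1;1 and PHO1, without a search for the nearest relative. PHT1;1, 72.3% identical to PHT1;4, was at 501.7 ± 103 TPM in bon123 mannitol, against 69.2 ± 41.4 TPM in WT mannitol, and at 458.9 ± 29.7 TPM in bon123 mock, against 90.0 ± 28.8 TPM in WT mock. Bon123 against WT gave 2.98 ± 0.38 in mannitol (adjusted p = 2.91e-06) and 2.39 ± 0.38 in mock (adjusted p = 2.89e-05). PHT1;1 fell with ABA in bon123 (-2.76 ± 0.38, adjusted p = 7.17e-06) and in WT (-2.26 ± 0.38, adjusted p = 0.000132). Its coding sequence is 97.7% identical to that of PHT1;2, with a shared stretch of 404 bases, so reads of the pair may have been split and its values are uncertain. PHO1, the exporter that loads the xylem and is 65.5% identical to PHO1;H1, fell with mannitol in bon123 (-1.83 ± 0.23, adjusted p = 6.41e-06) and with ABA in WT (-0.99 ± 0.23, adjusted p = 0.00216). In mock it was at 26.4 ± 5.88 TPM in bon123 and 27.7 ± 3.25 TPM in WT (-0.08 ± 0.23, adjusted p = 0.755).

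A wider list of 99 phosphate response genes in 5 roles was read for comparison, of which 84 passed the filter on low values. The other 15 did not, among them 7 listed at 0 in every library. The list mixes regulators, such as PHR1, PHO2 and SPX4, with targets, so a rise or fall has no common meaning across it. With mannitol in WT, 39 of the 84 rose and 5 fell, with a median log2 fold change of 0.46 against 0.02 over all genes, of which 25.5% rose and 25.0% fell. By role, 13 of 26 signalling genes rose and none fell, 6 of 17 transport genes rose and 1 fell, and 8 of 16 phosphatases and nucleases rose and 1 fell. Of 20 lipid remodelling genes 8 rose and 3 fell, and of 5 genes of the organic acid bypass 4 rose. The largest rises were those of the acid phosphatase gene PAP17 (2.67 ± 0.16, adjusted p = 3.23e-09), the ribonuclease gene RNS1 (2.52 ± 0.18), the phosphate transporter gene PHT1;5 (2.30 ± 0.15) and PHO1;H10 (2.21 ± 0.22). The largest falls were those of NMT3, a phosphoethanolamine methyltransferase (-2.86 ± 0.22), the glycerophosphodiesterase gene GDPD6 (-2.50 ± 0.11), PAP7 (-1.05 ± 0.30) and the plastid transporter gene PHT2;1 (-0.68 ± 0.14). Their adjusted p-values were at most 0.00816.

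With mannitol in bon123, 10 of the 84 rose and 49 fell, with a median of -0.47 against -0.36 over all genes, of which 12.6% rose and 48.8% fell. With median-of-ratios scaling the split was 20 higher and 23 lower for the list. The same scaling gave 6368 higher and 6051 lower over all genes, against 2748 and 10606 without it. Of the lipid remodelling genes 14 fell and 2 rose, or 9 and 3 with that scaling. GDPD2 fell most (-1.95 ± 0.21, adjusted p = 1.25e-06), followed by PHO1, PHO1;H10 (-1.75 ± 0.22) and PLDZETA1, a phospholipase D (-1.67 ± 0.23). The rises were led by the glycerol-3-phosphate permease gene G3PP2 (1.91 ± 0.38, adjusted p = 0.000432), PAP22 (1.80 ± 0.24), the phospholipase C gene NPC4 (1.37 ± 0.16) and PPCK1, a kinase of phosphoenolpyruvate carboxylase (0.97 ± 0.20). The interaction with mannitol was negative for 56 and positive for 6 of the 84, or 41 and 12 with median-of-ratios scaling. Over all genes it was negative for 45.3% and positive for 17.0%, and the scaling turned 9853 lower and 3685 higher genes into 6107 and 6636. It was most negative for PHO1;H10 (-3.96 ± 0.31, adjusted p = 6.16e-08), the SPX-domain membrane protein gene AT1G63010 (-2.43 ± 0.30), PLDZETA1 (-2.41 ± 0.33) and WRKY6 (-2.32 ± 0.26).

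With ABA in bon123, 27 of the 84 rose and 32 fell, with a median of -0.05 against -0.51 over all genes, of which 15.1% rose and 55.5% fell. Median-of-ratios scaling gave 40 higher and 20 lower in the list, and 7206 and 7514 over all genes, against 3288 and 12053 without it. The acid phosphatase gene PAP22 rose most, at 136.8 ± 29.4 TPM in bon123 ABA against 1.69 ± 0.37 TPM in bon123 mock (5.66 ± 0.24, adjusted p = 1.41e-11). The nuclease gene BFN1 (3.89 ± 0.42), NPC4 (3.51 ± 0.16) and PLDZETA2 (3.29 ± 0.28) followed. The methyltransferase gene NMT2 fell most (-3.47 ± 0.14, adjusted p = 5.07e-12), followed by PHT1;1, GDPD5 (-2.54 ± 0.15) and PHT2;1 (-2.35 ± 0.14). In WT, 26 rose and 23 fell with ABA, with a median of -0.01 against -0.11 over all genes, of which 18.9% rose and 30.6% fell. RNS1 (3.49 ± 0.18, adjusted p = 4.21e-10), PHO1;H10 (2.70 ± 0.22), the zinc finger gene ZAT6 (2.39 ± 0.14) and BFN1 (2.37 ± 0.42) rose most there. NMT3 (-3.19 ± 0.22, adjusted p = 1.38e-08), IPS1, PHT1;1 and PAP7 (-1.75 ± 0.30) fell most.

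The interaction with ABA was positive for 14 and negative for 31 of the 84, with a median of -0.32 against -0.44 over all genes, of which 9.51% were positive and 43.0% negative. With median-of-ratios scaling 30 were positive and 12 negative for the list, and 5095 and 4695 over all genes, against 2067 and 9353 without it. Without bon123 ABA replicate 3 it was positive for 20 and negative for 30. PAP22 (3.36 ± 0.34, adjusted p = 1.1e-06), NMT3 (2.999 ± 0.31), IPS1 (2.44 ± 0.40) and SQD2, a sulfolipid synthase (2.24 ± 0.31), were the most positive. NMT1 (-2.90 ± 0.28, adjusted p = 6.03e-07), NMT2 (-2.75 ± 0.19), GDPD5 (-2.22 ± 0.21) and NPC3, a phospholipase C gene (-2.15 ± 0.24), were the most negative.

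**Figure D5:**
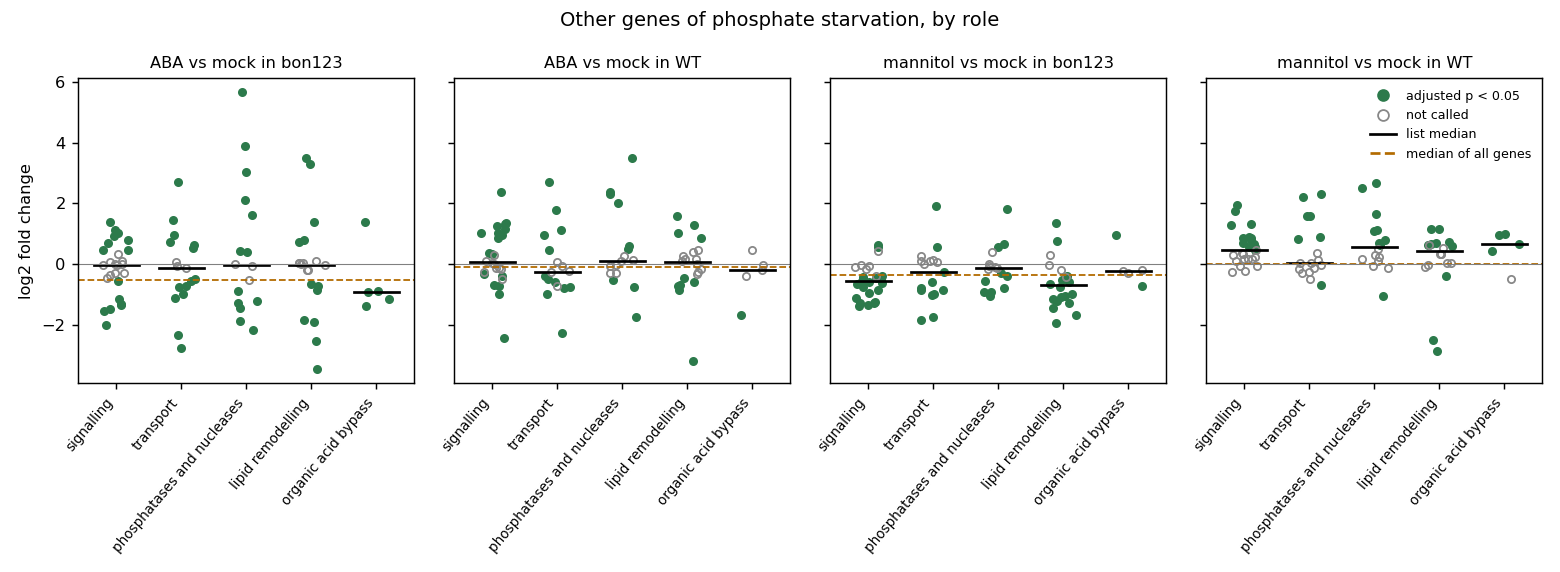
Log2 fold change (y axis) of the 84 tested genes of the wider phosphate list, by role, to ABA and to mannitol in bon123 and WT; filled points passed the adjusted p threshold of 0.05. Black bars are list medians and the dashed line is the median of all genes; for mannitol in WT most filled points lie above 0 (39 higher, 5 lower), and for mannitol in bon123 most lie below it (10 higher, 49 lower, or 20 and 23 with median-of-ratios scaling).

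Between bon123 and WT the list was mixed. In ABA 35 were higher and 29 lower in bon123 (28.9% and 47.5% of all genes), or 43 and 19 with median-of-ratios scaling, which moved all genes from 6283 higher and 10318 lower to 8604 and 8663. In mannitol 20 were higher and 47 lower (25.4% and 49.3% of all genes), or 31 and 37 with that scaling, against 5513 and 10703 over all genes without it and 7957 and 8290 with it. In mock 40 were higher and 21 lower (40.1% and 33.7% of all genes). WRKY75, a factor that acts on phosphate starvation genes, was at 233.0 ± 16.4 TPM in bon123 mock, against 6.96 ± 2.11 TPM in WT mock (4.91 ± 0.26, adjusted p = 6.44e-11). It was also higher in ABA (4.46 ± 0.26) and in mannitol (3.31 ± 0.26). WRKY45 (4.17 ± 0.19), the ubiquitin ligase gene NLA (3.60 ± 0.25) and ZAT6 (3.46 ± 0.14) were higher in bon123 mock as well. NMT3 was lower in bon123 by the widest margin of the list in mock, at 2.26 ± 1.2 TPM in bon123 against 447.8 ± 40.4 TPM in WT (-7.16 ± 0.22, adjusted p = 1.28e-13). GDPD6 (-3.63 ± 0.11), the plastid sulfolipid gene UGP3 (-3.07 ± 0.13) and PPC2, a phosphoenolpyruvate carboxylase (-2.86 ± 0.17), followed. GDPD6 passed the filter on low values only through WT, where it is high (at most 0.37 TPM in bon123). In ABA NMT1 was lowest relative to WT (-4.85 ± 0.20, adjusted p = 1.94e-12), and PHT2;1 was lower by 3.84 on the log2 scale (-3.84 ± 0.14). In mannitol PHT4;1, another plastid transporter, was lower as well (-3.19 ± 0.13, adjusted p = 2.03e-12).

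The likeness of profiles was measured as the root mean square difference of log2(TPM + 1) over the 6 group means, each gene centred on its own mean. Among the 7 genes the closest pairs were SPX1 and SPX3 (0.357) and SPX3 and MGD3 (0.442), while PEPC1 and PS2 differed by 0.812. PHT1;4 was far from the others, with differences from 1.13 (PHO1;H1) to 2.52 (PEPC1). Over all tested genes with a symbol, the nearest to PEPC1 were the sulfate transporter gene SULTR3;1 (0.535) and ABI2 (0.6), a phosphatase of ABA signalling. PEPC1 itself varied by 2.0 about its own mean on the same measure, PS2 by 1.4, MGD3 by 1.22, SPX3 by 0.937 and SPX1 by 0.869. The differences are not scaled to that spread, so those of genes that vary little are smaller for that reason too. The nearest to PS2 were the sucrose phosphate synthase gene SPS2F (0.231) and BAM1 (0.35), a beta-amylase. SPX1 was nearest to the sterol glucosyltransferase gene UGT80B1 (0.181) and ACD1-LIKE (0.222), and SPX3 to the receptor kinase gene CRK10 (0.179) and the lipoxygenase gene LOX3 (0.205). PHT1;4 was nearest to ABCI17 (0.184) and to EIR1 (0.24), an auxin exporter of the root tip. PHO1;H1 was nearest to the homeobox gene RPL (0.183) and HPR3 (0.184), and MGD3 to MYB31 (0.281) and AGO7 (0.298).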

How the data were processed

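The authors deposited 1 table of TPM, known as such from the common total of its columns, since its header gives no unit. Tools in the submitters' processing notes are RSEM 1.3.1, HISAT2 2.1.0 and DESeq2 1.24.0, with the build TAIR10, and their roles are not stated. TPM keeps no depth. Here limma 3.58.1 (R 4.3.3, trend) was fitted to log2(TPM + 1) of 21727 genes (1 TPM or more in 3 or more of the 18 libraries), with 6 group means. Of the 33082 genes, 5905 were at 0 throughout. Tests were two-sided, adjusted by Benjamini-Hochberg over all genes of each of 9 comparisons and called under 0.05. The pseudocount understates changes of weak genes. The 7 genes and all lists were chosen with earlier results of these data known. Genes named from the wider list are fixed core regulators and paralogs, and up to 4 rises and 4 falls per comparison. Other settings were median-of-ratios scaling, a pseudocount of 0.1, no filter, a replicate block, each library left out and, added after seeing the data, removal of the trend with gene length. RefSeq positions are on TAIR10.1. Replicate numbers showed no pairing of the libraries.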

Additional observations from a re-analysis of the deposited data

Results flagged for a closer look

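Each value below is an interaction (bon123 response minus WT response on the log2 scale) that passed the adjusted p threshold of 0.05 in limma. For the 7 genes these are descriptions, since the choice of the genes may have used them. With ABA the differences were 3.94 for PEPC1, 1.59 for PS2 and 1.09 for SPX1. With mannitol they were -1.36 for PEPC1, -2.59 for PS2, -1.20 for SPX1, -1.85 for SPX3 and -1.60 for MGD3. The PEPC1 interaction with mannitol did not pass with a pseudocount of 0.1 (-1.35). In bon123 PEPC1 averaged 0.397 TPM in mock and 0.68 TPM in mannitol, SPX3 averaged 0.337 and 0.267 TPM, and MGD3 averaged 0.0967 and 0.07 TPM. A pseudocount of 1 holds changes at such levels near 0, so the mannitol interactions of PEPC1, SPX3 and MGD3 largely restate the rise in WT.

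In the wider list the differences with ABA were 3.36 for PAP22, 2.999 for NMT3, 2.44 for IPS1 and 2.24 for SQD2, and on the negative side -2.90 for NMT1, -2.75 for NMT2, -2.22 for GDPD5, -2.15 for NPC3 and -1.18 for PHO2. With mannitol they were 2.33 for NMT3, 2.32 for GDPD6, 1.56 for G3PP2 and 1.02 for PAP22. On the negative side they were -3.96 for PHO1;H10, -2.43 for AT1G63010, -2.41 for PLDZETA1, -2.32 for WRKY6, -1.93 for PHL1, -1.63 for VIP1 and -1.52 for PHO1. PHO2 (-1.43), SPX2 (-1.22), PHR1 (-1.20), VIP2 (-1.17) and MGD2 (-0.63) were also negative with mannitol. The positive interactions of NMT3, IPS1 and GDPD6 belong to genes with little transcript in bon123, such as 2.26 TPM of NMT3 in bon123 mock against 447.8 TPM in WT mock. IPS1, GDPD6 and MGD2 passed the filter on low values only through WT, at most 0.9, 0.37 and 0.39 TPM in bon123. The interaction of G3PP2 did not pass without bon123 mock replicate 2 (1.34) or WT mannitol replicate 1 (1.34) or 3 (1.23), nor that of PAP22 with mannitol without WT mock replicate 3 (0.81). With the length trend removed, the interactions of PHO2 (-0.20), VIP2 (-0.02) and MGD2 (-0.14) with mannitol did not pass either, and that of MGD2 missed the threshold with a pseudocount of 0.1 (-0.74).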

How the results depend on the processing

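The numbers of genes called in either direction, over all genes and over the wider list, stayed within 1.5 times of their values under all settings tried. The counts in 1 direction did not: with median-of-ratios scaling, 7206 genes were higher with ABA in bon123, against 3288 without it, and the list's interaction with ABA was positive for 30 and negative for 12, against 14 and 31. Median-of-ratios scaling reversed the sign of SPX1 with mannitol in bon123 (0.040), of PHR1 (0.64), AT4 (0.10), VIP1 (0.35) and PHO1 (0.093) with ABA in bon123, and of the PHL1 interaction with ABA (0.31). Removing the length trend reversed PHO1;H1 (0.62), PHR1 (0.54), VIP2 (0.31), VIP1 (0.38) and PHO1 (0.071) with ABA in bon123, and PHO2 (0.26), VIP1 (0.10) and MGD2 (0.41) with mannitol in bon123. It also reversed the interaction of PHO1;H1 with mannitol (0.93) and the difference of PHL1 between bon123 and WT in mannitol (0.077). Some values that had not passed the threshold, and did not pass it then, also turned sign. With median-of-ratios scaling these included SPX4 in bon123 against WT in mannitol (0.026) and in the interaction with mannitol (0.022), VIP2 with ABA in bon123 (0.12), and in bon123 against WT PHR1 in mock (-0.094) and, in ABA, AT4 (0.37) and SPX1 (0.13). With the length trend removed MGD3 with ABA in bon123 turned to 0.54 and the PHL1 interaction with ABA to 0.20. The cause was not tested. The scaling moved the median of all genes by 0.49 for ABA in bon123, 0.37 for mannitol in bon123, -0.15, 0.32 and 0.33 for bon123 against WT in mock, ABA and mannitol, and 0.48 for either interaction, so values of that size in bon123 depend on it.

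Same-numbered libraries of different groups had deviations that correlated at -0.24 to 0.26, over 0.1 in 7 of 45 pairs. Libraries of different numbers gave -0.28 to 0.30. No pairing by number showed in these values, which cannot exclude that same-numbered samples were handled together. With the replicate block 15255 genes were called for ABA in bon123, against 15341 without it, and no call of a named gene changed. Depth is unknown, so levels under about 1 TPM, as of SPX3 and MGD3 in bon123, cannot be given a counting error.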
